A study of Homo sapiens with 12 samples.

Results

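The genes described are those with a ZNF number as their symbol (ZNF followed by digits, with or without a letter from A to D) whose mean level over all 12 libraries was at least 10 CPM, counts scaled to the library total. They were thus chosen by their measured level. Of 513 such symbols in a table of 60987 gene rows, 225 met the rule, 288 lay below it, and 33 of the 513 had no count in any library. That level was a mean over every library, so abundance is a description and not a result. A gene under 10 CPM in control or in deprived cells could meet the rule through the other condition. Genes of this kind are in the counts of rises and falls below. The mean of the 225 ran from 10.01 to 254 CPM with a median of 23.1. ZNF680 and ZNF333 lay just inside the rule, both at 10.0 CPM, and ZNF814 at 9.83 CPM and ZNF181 at 9.70 CPM just outside. All 225 had enough counts to be tested.

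The libraries were made from HCT116, an established human colorectal carcinoma line labelled as wild type. All cells grew in DMEM with 10% fetal bovine serum and antibiotics. Control cells stayed in full DMEM and deprived cells were washed and given DMEM with 0 mM cystine, the oxidised dimer of cysteine, for 24 h or 48 h. Each of the 4 groups has 3 samples. The wash and the fresh medium are stated for deprived cells only, so they cannot be told apart from the loss of cystine. Whether samples came from separate cultures is not in the labels, and p-values therefore reflect a spread among samples that may be only technical.

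Zinc finger proteins of the C2H2 type fold around a zinc ion held by a pair of cysteines and a pair of histidines, and strings of such fingers read DNA bases. Many carry a KRAB domain, which recruits TRIM28, the methyltransferase SETDB1 and heterochromatin proteins, and much of their known work is the silencing of transposable elements. Others carry a SCAN domain, through which they pair with each other, or act as activators at promoters, in splicing or at the ribosome.

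Most of the 225 genes encode cysteine-rich proteins. In the longest coding sequence of each gene in GENCODE release 29, cysteine made up a median of 4.72% of residues, with a range of 0.806% in ZNF830 to 9.2% in ZNF664. Over 19545 genes with a coding sequence the median was 2.05% and the middle 50% of genes lay between 1.32% and 3.02%. Of the 225, 212 were above the median of all proteins. A finger pattern (2 to 4 residues between the cysteines, 12 to the first histidine and 3 to 5 between the histidines) matched a median of 10 times per protein, at most 34 times in ZNF462, followed by ZNF142, ZNF236 and ZNF646 with 31 each. It matched in all but 5 genes, ZNF185, ZNF330, ZNF503, ZNF839 and ZNF862. A tighter pattern, with 2 residues between the cysteines, gave a median of 9 and no match in 9 genes. ZNF185 is known as a LIM-domain protein of the actin cytoskeleton, and ZNF330 as a nucleolar protein. By the Pfam entries of the deposited table, 116 genes encode a KRAB domain, 87 C2H2 fingers without KRAB or SCAN, 4 a SCAN domain without KRAB, 11 another entry and 7 none.

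RefSeq promoters of GRCh38.p14, from 250 bases before to 50 bases after the gene start, were found for 191 of the 225 genes. The promoters below belong to the genes with the largest rise and the largest fall at 24 h, and then at 48 h, that were not yet taken, among genes whose promoter was matched and may be printed. Capitals mark matches to any of 10 short motifs on either strand. ZNF410 (chr14:73886609-73886908, plus strand) has 2 matches to the ETS core CCGGAAG and 2 to the GC box GGGCGG, and ZNF608 (chr5:124748775-124749074, minus strand) has 3 to the CCAAT box CCAAT. ZNF697 (chr1:119648217-119648516, minus strand) has the ZNF143 core ACTACAA and a GC box, and ZNF510 (chr9:96778038-96778337, minus strand) has no match.
ZNF410: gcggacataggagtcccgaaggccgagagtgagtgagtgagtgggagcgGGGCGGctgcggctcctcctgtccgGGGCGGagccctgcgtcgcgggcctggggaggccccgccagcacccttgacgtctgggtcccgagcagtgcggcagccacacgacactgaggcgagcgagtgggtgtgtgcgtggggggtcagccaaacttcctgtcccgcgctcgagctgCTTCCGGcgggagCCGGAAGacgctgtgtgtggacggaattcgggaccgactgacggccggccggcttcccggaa
ZNF608: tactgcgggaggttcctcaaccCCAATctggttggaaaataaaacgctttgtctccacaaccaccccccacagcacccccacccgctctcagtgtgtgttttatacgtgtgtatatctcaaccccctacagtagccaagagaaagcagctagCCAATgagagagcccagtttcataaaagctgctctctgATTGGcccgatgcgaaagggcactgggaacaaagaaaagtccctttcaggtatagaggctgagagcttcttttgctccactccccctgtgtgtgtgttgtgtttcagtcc
ZNF697: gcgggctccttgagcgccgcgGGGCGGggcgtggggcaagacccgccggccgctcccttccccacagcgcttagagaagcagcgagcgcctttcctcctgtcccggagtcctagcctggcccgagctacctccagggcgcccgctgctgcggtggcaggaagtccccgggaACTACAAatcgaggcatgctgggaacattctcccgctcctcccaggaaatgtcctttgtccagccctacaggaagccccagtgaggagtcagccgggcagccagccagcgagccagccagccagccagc
ZNF510: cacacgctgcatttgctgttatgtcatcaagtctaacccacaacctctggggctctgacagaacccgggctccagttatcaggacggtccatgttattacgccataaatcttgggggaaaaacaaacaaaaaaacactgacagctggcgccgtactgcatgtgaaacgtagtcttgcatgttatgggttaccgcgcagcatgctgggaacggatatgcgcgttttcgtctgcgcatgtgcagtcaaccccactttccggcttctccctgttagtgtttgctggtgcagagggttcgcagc

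The ETS core, the binding letters of a family of activators common at housekeeping promoters, was present in 82 of 191 promoters, 42.9%, against 18.5% of 11759 promoters of tested genes and 10.7% of all 27305 promoters of the same length. The ZNF143 core was in 7.85% against 3.61% of tested genes, and the cAMP response element TGACGTCA in 5.24% against 3.20%. Other motifs were closer to the tested genes. The CCAAT box was in 40.8% against 36.5%, the GC box in 66.5% against 69.2%, the E-box CACGTG in 6.28% against 10.0%, the YY1 core AAGATGGC in 4.71% against 5.07% and the E2F core TTTNGCGC in 3.66% against 2.99%. Of letters bound by stress factors, the antioxidant response element core TGACNNNGC was in 15.2% against 15.1% and the composite core of ATF4 and C/EBP, TGATGNAA, in 1.57% against 1.70%. Among genes that were higher at 48 h the ETS core was in 50 of 101 promoters and among those that were lower in 15 of 48. Matches to different motifs may share bases, and they describe letters only.

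Per length, the most abundant of the 225 were ZNF706 at a mean of 302 TPM, ZNF207 at 142 TPM, ZNF121 at 136 TPM, ZNF146 at 101 TPM and ZNF664 at 97.9 TPM, and the median gene lay at 12.3 TPM. ZNF664, the gene richest in cysteine, was at 243, 234 and 224 CPM in control cells and 309, 302 and 292 CPM in deprived cells at 24 h, and at 215, 214 and 217 against 291, 279 and 276 CPM at 48 h. The groups did not overlap at either time, and ZNF664 rose by 0.36 ± 0.05 and 0.39 ± 0.05 on the log2 scale (SE; adjusted p = 2.24e-06 and 4.56e-07, edgeR). ZNF207, a mitotic protein that binds microtubules and BUB3, fell by 0.25 ± 0.05 and 0.29 ± 0.05. Together the 225 genes held 0.752% ± 0.018 of counts in control and 0.777% ± 0.018 in deprived cells at 24 h (SD, n = 3), where the groups overlapped, and 0.699% ± 0.030 against 0.800% ± 0.037 at 48 h, where they did not. In such bulk libraries fewer cells of a kind and less RNA per cell cannot be told apart.

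Library totals lay between 19146108 and 24179533 estimated counts. Replicate 1 of the deprived cells at 48 h stood apart from replicates 2 and 3. Chi-square over its degrees of freedom was 6.81 and 8.12 against 2.996 between those, and the share of counts in the 225 genes 0.843% against 0.777% and 0.781%. Replicate 1 of the control cells at 48 h leaned the same way, with 7.52 and 6.57 against 5.12, and a share of 0.733% against 0.676% and 0.687%. Without the deprived replicate 1, 110 of the 225 genes were higher and 57 lower at 48 h. Without the control replicate 1 these were 114 and 53. The calls lost without the deprived replicate 1 are given with each gene below. Epithelial markers were present, with all 6 tested and a summed level of 3956 to 4786 CPM in control and 4998 to 5579 CPM in deprived cells, whereas 3 of 6 colon markers were tested and 1 was at 0 everywhere. Leukocyte markers stayed at or under 0.459 CPM in sum, with 2 of 4 at 0 everywhere, and endothelial markers at or under 2.41 CPM. The 4 fibroblast markers, 2 of them tested, summed to 31.6 to 48.8 CPM in control and 15.9 to 22.4 CPM in deprived cells. Their part in the results was not tested.

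After 24 h without cystine, 87 of the 225 genes rose and 46 fell by edgeR's quasi-likelihood test, at an adjusted p under 0.05 over all 16994 genes tested. Among all genes tested 28.8% rose and 26.9% fell, beside 38.7% and 20.4% of the ZNF genes. All genes tested had no floor of 10 CPM, so the 2 sets are not matched in level. The difference between these shares was not tested. The median log2 fold change was 0.11, against -0.01 for all genes. It was 0.04 against -0.08 with upper-quartile scaling and likewise with library totals. The median size of the change was 0.27, against 0.37 for all genes. By at least 2-fold, 3 rose (background 4.84%) and 3 fell (background 6.26%).

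The 3 rises were ZNF165, ZNF410 and ZNF215. ZNF165, a SCAN-domain gene known as a cancer-testis antigen (chr6:28080975-28089563), was at 24.5, 22.3 and 21.0 CPM in control and 55.5, 50.4 and 53.1 CPM in deprived cells. All deprived samples lay above all control samples, a rise of 1.23 ± 0.07 (adjusted p = 4.67e-11, edgeR). ZNF410 (chr14:73886617-73932511), an activator known for its clustered sites at the gene CHD4, went from 20.4, 21.4 and 17.9 to 43.3, 43.0 and 45.9 CPM, a rise of 1.15 ± 0.09. CHD4 itself, named here after its values were seen, was at 493 ± 14.3 and 498 ± 3.86 CPM (SD, n = 3), a difference of 0.02 ± 0.05 (adjusted p = 0.799, edgeR). ZNF215 (chr11:6926404-7001004), a KRAB gene, rose by 1.05 ± 0.13 from 7.81 ± 1.18 CPM. That control level lay under the 10 CPM of the rule. Next came ZNF48 with 0.96 ± 0.08, ZNF430 with 0.92 ± 0.13, ZNF469 with 0.87 ± 0.07, ZNF202 with 0.84 ± 0.08 and ZNF783 with 0.82 ± 0.09.

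The 3 falls were ZNF608, ZNF704 and ZNF510. ZNF608 (chr5:124636913-124748807) went from 21.4, 18.4 and 20.2 CPM in control to 7.56, 6.05 and 7.67 CPM in deprived cells, a log2 fold change of -1.5 ± 0.11 (adjusted p = 1.31e-09, edgeR). ZNF704 went from 141, 141 and 137 to 53.5, 53.3 and 50.5 CPM, and ZNF510, a KRAB gene (chr9:96755865-96778129), from 19.6, 20.1 and 17.4 to 7.95, 9.59 and 8.61 CPM. In each of the 3 genes the groups lay well apart. ZNF608 and ZNF510 were under 10 CPM in deprived cells and met the rule through their control samples. Smaller falls were those of ZNF512 (-0.88 ± 0.13), ZNF292 (-0.76 ± 0.11), ZNF480 (-0.72 ± 0.13), ZNF618 (-0.70 ± 0.07), a partner of the hemimethylation reader UHRF2, and ZNF581 (-0.70 ± 0.09).

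After 48 h, 118 genes rose and 56 fell, against a background of 33.5% and 34.9%. The median log2 fold change was 0.20 against -0.02 for all genes, and the median size 0.43 against 0.53. By at least 2-fold, 15 rose (background 8.59%) and 7 fell (background 15.3%).

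**Figure D1:**
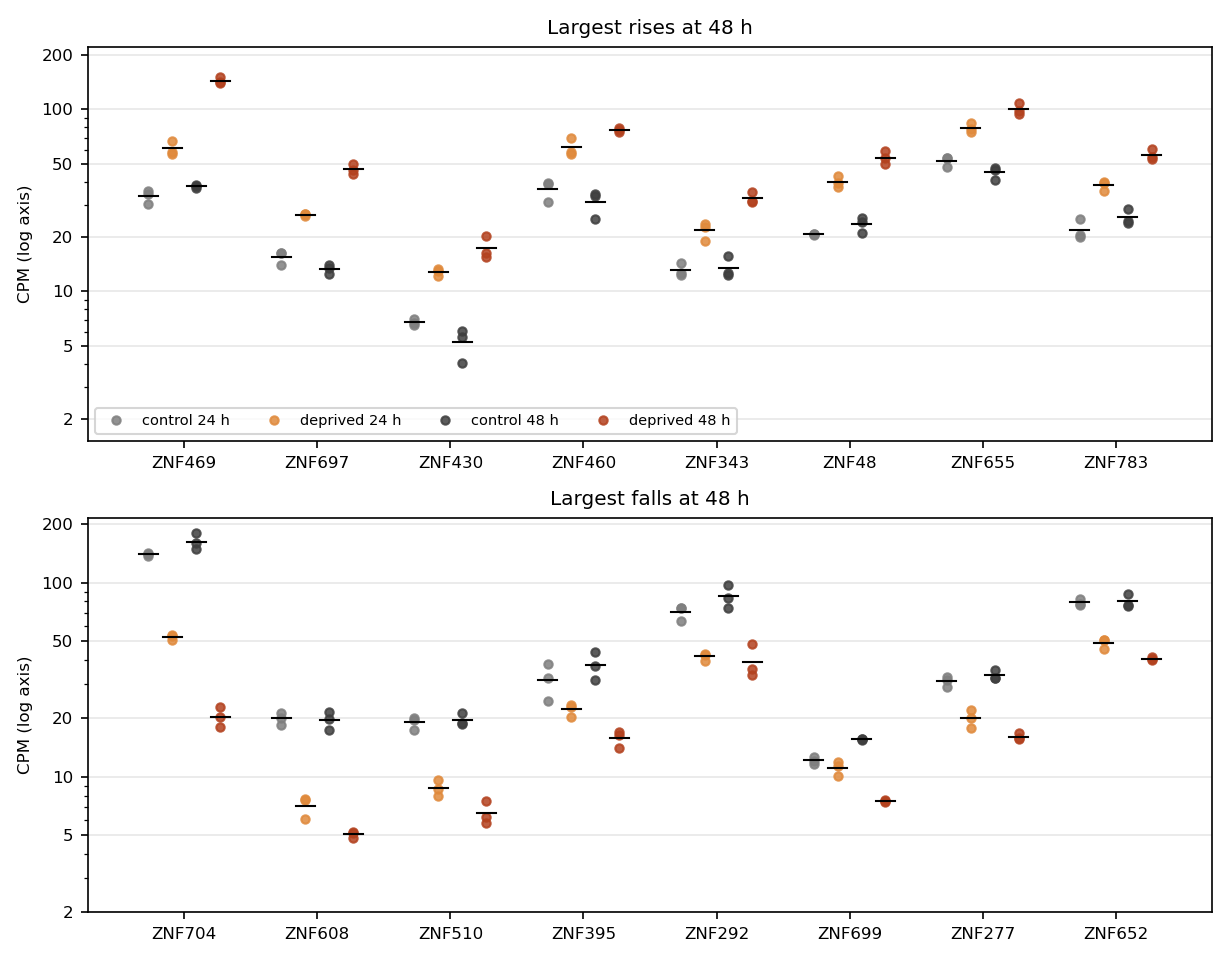
Levels in CPM (log axis) of the 8 genes with the largest rise (top) and the 8 with the largest fall (bottom) at 48 h. Points are samples, coloured by group, and bars are group means; ZNF469 stands between 140 and 150 CPM in deprived cells at 48 h and between 37.0 and 38.2 CPM in control, and ZNF704 between 18.1 and 22.8 CPM against 149 to 180 CPM.

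ZNF469, a very large protein whose loss causes a thin and brittle cornea (chr16:88427471-88440757), had the largest rise. It was at 38.2, 37.0 and 38.1 CPM in control and 142, 140 and 150 CPM in deprived cells at 48 h, which is 3.81-fold or 1.93 ± 0.07 (adjusted p = 1.07e-14, edgeR). ZNF697 (chr1:119619422-119647773) went from 12.4, 13.4 and 14 to 46.4, 50.1 and 44.1 CPM, 3.53-fold. ZNF430, a KRAB gene (chr19:21020620-21060050), went from 6.09, 4.07 and 5.64 to 20.03, 15.5 and 16.2 CPM, 3.26-fold. No deprived sample reached down to a control sample in ZNF469, ZNF697 or ZNF430. The next rises were ZNF460 with 1.32 ± 0.10, ZNF343 with 1.26 ± 0.10, ZNF48 with 1.22 ± 0.08, ZNF655 with 1.15 ± 0.07 and ZNF783 with 1.14 ± 0.09.

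ZNF704 had the largest fall, from 180, 149 and 160 CPM in control to 22.8, 20.4 and 18.1 CPM in deprived cells, a log2 fold change of -2.99 ± 0.08 (adjusted p = 1.22e-16, edgeR). ZNF608 went from 19.7, 21.4 and 17.4 to 5.19, 5.15 and 4.83 CPM, and ZNF510 from 21.3, 18.8 and 18.9 to 7.48, 5.80 and 6.24 CPM. The other falls past 2-fold were ZNF395, a gene known to be induced by hypoxia (-1.25 ± 0.14), ZNF292 (-1.12 ± 0.11), ZNF699 (-1.06 ± 0.09) and ZNF277 (-1.05 ± 0.08). ZNF652, a repressor, lay just short with -0.98 ± 0.06, at 87.6, 75.9 and 77.0 CPM in control and 40.4, 41.3 and 40.03 CPM in deprived cells.

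Most genes kept their direction between the times, which have separate controls. Of the 225, 77 rose at both, 35 fell at both, 17 were called at 24 h only, 58 at 48 h only and 34 at neither. The sign was the same in 185, and in 140 of these the change was larger at 48 h. These joint counts were not made over all genes, so they are not a trait shown for the 225. Over all genes the median size of the change also grew, from 0.37 at 24 h to 0.53 at 48 h. Across the 225 genes, which are not independent replicates, the log2 fold changes at 24 h and 48 h had a Pearson r of 0.82 and a Spearman rho of 0.80.

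**Figure D2:**
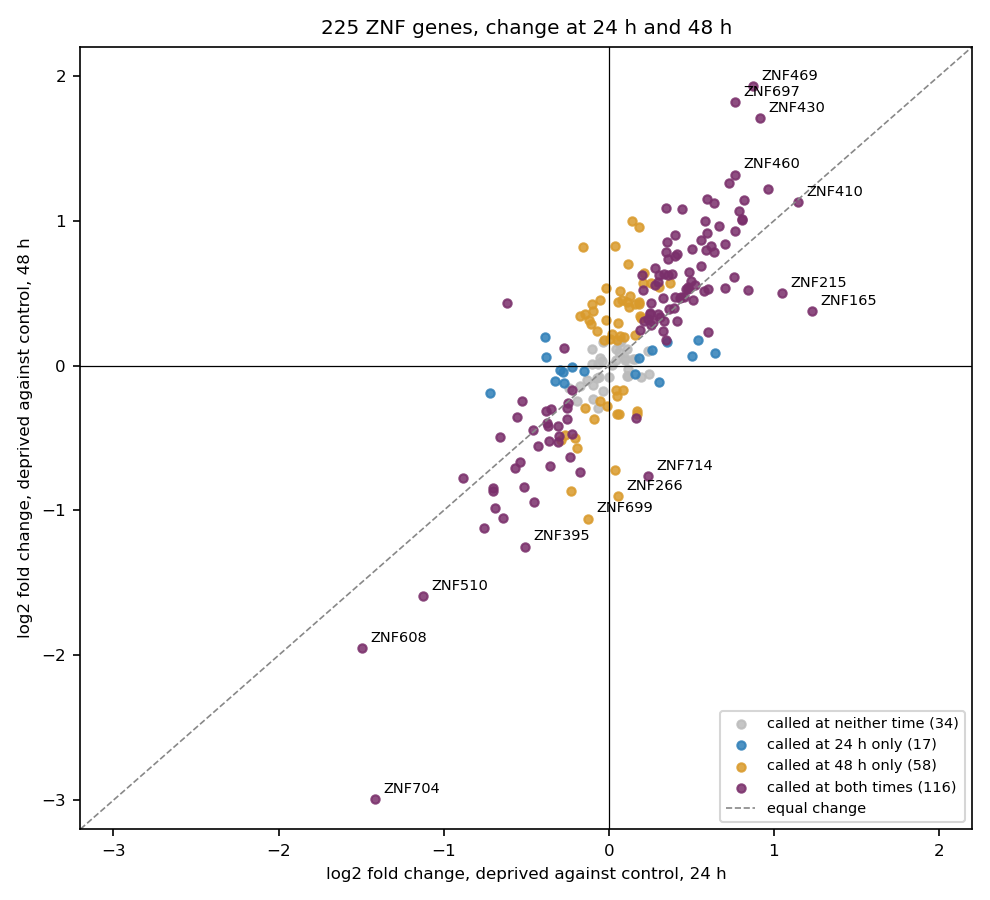
Log2 fold change of deprived against control cells at 24 h (x axis) and 48 h (y axis), 1 point per gene for 225 genes, coloured by the times at which it was called. The sign is the same at both times in 185 genes, 140 of them with the larger change at 48 h. The share over all genes was not computed. ZNF704 lies farthest out at -1.41 and -2.99, and ZNF714 has opposite signs at 0.24 and -0.76.

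The difference between the times was tested as an interaction, the effect at 48 h minus that at 24 h. It was positive in 48 genes (background 16.4%) and negative in 28 (background 19.2%). When libraries were scaled by their totals alone it was positive in 59 and negative in 17, so this balance depends on the scaling. The median interaction of all genes moved as well, from -0.01 to 0.04, beside 0.07 to 0.12 for the 225 genes. The share of all genes called under that scaling was not computed. Among the largest, ZNF697 had 1.06 ± 0.11, ZNF469 1.06 ± 0.10, ZNF483 1.05 ± 0.18 and ZNF629 0.86 ± 0.09, and ZNF704 had -1.58 ± 0.11, ZNF714 -1.0 ± 0.12, ZNF266 -0.96 ± 0.14 and ZNF699 -0.93 ± 0.13. The rise of ZNF165 was smaller at 48 h (0.38 ± 0.07), with 24.2, 26.0 and 26.3 CPM in control and 34.1, 31.1 and 34.1 CPM in deprived cells, which did not overlap, and an interaction of -0.85 ± 0.10.

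The 4 genes that follow were called in opposite directions at the 2 times. ZNF483, a gene with both KRAB and SCAN domains, fell from 22.2, 21.2 and 19 to 14.4, 13.1 and 13.2 CPM at 24 h and rose at 48 h, where the groups overlapped at 15.2, 9.92 and 12.5 CPM in control and 19.7, 14.9 and 16.3 CPM in deprived cells. ZNF740, named after its values were seen, was called lower at 24 h (-0.27) and higher at 48 h (0.13, adjusted p = 0.0371, edgeR). ZNF714 was called higher at 24 h (0.24 ± 0.08) and lower at 48 h (-0.76 ± 0.09), and ZNF217 higher (0.16 ± 0.05) and lower (-0.36 ± 0.05). Both calls at 24 h were lost with upper-quartile scaling (adjusted p = 0.0909 and 0.153). ZNF714 also lost it without control replicate 2 or 3 or deprived replicate 1 (adjusted p = 0.0626, 0.0643 and 0.0757), and ZNF217 without control replicate 3 or deprived replicate 2 (adjusted p = 0.0511 and 0.0796).

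Without deprivation, 17 of the 225 genes were higher at 48 h than at 24 h (background 12.7%) and 37 were lower (background 10.4%) in control cells. The lower count varied with the libraries kept. It was 24 without control 24 h replicate 2, 24 without control 48 h replicate 2 and 21 without control 48 h replicate 3. The median log2 fold change of the 225 genes was then -0.08, -0.07 and -0.05, beside -0.07 with all libraries. Fewer samples can also leave fewer calls, and the share over all genes was not computed for these fits. Scaling by totals gave 13 higher and 55 lower, with the median over all genes at -0.04 in place of 0.01. ZNF480 (-0.85 ± 0.13), ZNF483 (-0.73 ± 0.13) and ZNF81 (-0.72 ± 0.12) fell most, and ZNF503 rose by 0.56 ± 0.07. In deprived cells, 49 were higher (background 20.7%) and 45 lower (background 21.8%) at 48 h than at 24 h. ZNF469 (1.24 ± 0.07), ZNF185 (0.87 ± 0.06) and ZNF697 (0.83 ± 0.07) rose most, and ZNF714 (-1.42 ± 0.08), ZNF704 (-1.36 ± 0.08) and ZNF551 (-0.89 ± 0.11) fell most.

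The genes were next split by domain. Of 116 KRAB genes, 39 rose (33.6%) and 21 fell (18.1%) at 24 h. At 48 h 54 rose (46.6%) and 26 fell (22.4%), and the median log2 fold changes were 0.07 and 0.16. Of the 87 with C2H2 fingers and neither KRAB nor SCAN, 39 rose (44.8%) and 16 fell (18.4%) at 24 h. At 48 h 54 of them rose (62.1%) and 22 fell (25.3%), and the medians were 0.18 and 0.33. Among all genes tested 28.8% rose and 26.9% fell at 24 h, and 33.5% and 34.9% at 48 h. The difference between the classes, or from all genes, was not tested. Of the 7 without a Pfam entry, ZNF185 and ZNF609 rose at both times and the other 5 fell at both. ZNF185 was at 78.3, 89.2 and 93.6 CPM in deprived cells against 39.3, 41.1 and 39.4 CPM in control at 48 h.

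**Figure D3:**
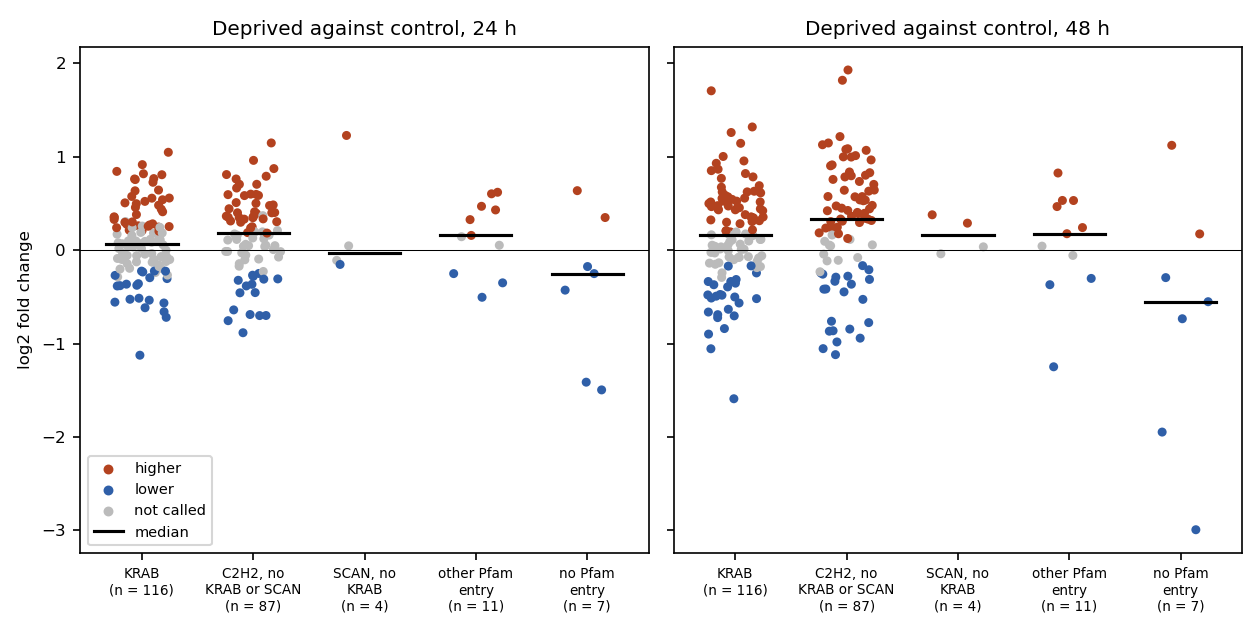
Log2 fold change of deprived against control cells at 24 h (left) and 48 h (right) by Pfam class, 1 point per gene, with the class median as a bar and the call as colour. The medians of the KRAB and fingers-only classes lie above 0 at both times, and the 7 genes without an entry have medians of -0.25 and -0.55.

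Over the 225 genes the share of cysteine and the log2 fold change had a Spearman rho of -0.04 at 24 h and -0.09 at 48 h. The number of finger matches gave 0.06 and 0.07, or 0.08 and 0.10 with the tighter pattern. These genes share libraries and, in part, sequence. Among 138 other genes with a C2H2 entry and at least 10 CPM, 59 rose (42.8%) and 28 fell (20.3%) at 24 h. At 48 h 70 rose (50.7%) and 27 fell (19.6%). The 225 genes had 38.7% and 20.4% at 24 h and 52.4% and 24.9% at 48 h, so their lean to rises was not particular to them. Of the 288 ZNF symbols below 10 CPM, 166 were tested, with 26 higher (15.7%) and 30 lower (18.1%) at 24 h. At 48 h 33 were higher (19.9%) and 43 lower (25.9%).

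By known role, the genes tied to the ribosome rose together, 3 of 3 at each time (background 28.8% at 24 h and 33.5% at 48 h). ZNF622, a factor of large-subunit maturation, was at 21.8, 27.3 and 25.4 CPM in control and 48.9, 57.8 and 51.4 CPM in deprived cells at 48 h, a rise of 1.09 ± 0.09 (adjusted p = 1.85e-09, edgeR). It was larger than the 0.35 ± 0.09 of 24 h, with an interaction of 0.74 ± 0.13. ZNF593, linked to export of the large subunit, rose by 0.71 ± 0.10 and 0.84 ± 0.09. ZNF598, the ubiquitin ligase that senses collided ribosomes, went from 44.4, 43.9 and 45.7 to 61.2, 61.9 and 57.6 CPM at 24 h and from 42.7, 47.0 and 44.7 to 62.0, 59.3 and 64.4 CPM at 48 h. All deprived samples of these 3 genes lay above all control samples at each time. The same held for 5449 of all 16994 genes tested at 24 h and for 5805 at 48 h.

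Of 10 genes known as promoter-binding factors, 6 rose and 0 fell at 24 h (background 28.8% and 26.9%). At 48 h 9 rose and 0 fell (background 33.5% and 34.9%). ZNF143, which binds the ACTACAA core counted above, was at 24.8, 24.9 and 25 CPM in control and 38.9, 38.4 and 38.4 CPM in deprived cells at 48 h, a rise of 0.63 ± 0.06 after 0.33 ± 0.06 at 24 h. Its paralogue ZNF76 rose by 0.30 ± 0.07 at 24 h and was at -0.11 ± 0.07 at 48 h (adjusted p = 0.153, edgeR). ZNF410 stayed up, at 37.1, 42.9 and 41.6 CPM against 16.2, 18.7 and 20.7 CPM. CHD4 was called lower at 48 h, at -0.13 ± 0.05 (adjusted p = 0.0226, edgeR). ZNF281 rose at 48 h by 0.70 ± 0.05 and ZNF335 by 0.47 ± 0.08. That none fell depended on the setting. ZNF24, at -0.11 ± 0.05 at 24 h (adjusted p = 0.0847, edgeR), was called lower with upper-quartile scaling (adjusted p = 0.00893), library totals (0.0133), a floor of 5 CPM on the mean (0.0354), the replicate block (0.0442) and a fit to the compared groups (0.0351). ZNF76 was called lower at 48 h with upper-quartile scaling (adjusted p = 0.0351). The smaller rises were less firm. ZNF148 lost its call at 24 h without any 1 of the 6 libraries compared, with adjusted p of 0.0502 to 0.145, and at 48 h without deprived replicate 1 (adjusted p = 0.06). ZNF263 lost its call at 48 h without deprived replicate 3 (adjusted p = 0.0544) and ZNF131 its call at 24 h with scaling by totals (adjusted p = 0.0505).

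In the RNA-binding and splicing group of 7, 3 rose and 1 fell at 24 h (background 28.8% and 26.9%). At 48 h 4 rose and 1 fell (background 33.5% and 34.9%). ZNF326, a subunit of the DBIRD complex that links splicing to transcription, rose by 0.62 ± 0.08 and 0.83 ± 0.08. ZNF207 was the fall at both times. ZNF106 was called at 24 h, at 0.16 ± 0.06, but not with upper-quartile scaling (adjusted p = 0.219) nor without control replicate 2 or 3 or deprived replicate 2 (adjusted p = 0.0845, 0.0972 and 0.158). Of the 3 related genes ZNF532, ZNF592 and ZNF687, which act with the chromatin reader ZMYND8, the first rose by 0.81 ± 0.07 and 1.01 ± 0.07, the second by 0.41 ± 0.06 and 0.31 ± 0.06, and ZNF687 fell by 0.31 ± 0.06 and 0.42 ± 0.06.

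Of 8 genes known as chromatin corepressors, 1 rose and 2 fell at 24 h (background 28.8% and 26.9%). At 48 h 4 rose and 4 fell (background 33.5% and 34.9%). ZNF518B, a partner of the methyltransferase EHMT2, was at 126, 124 and 123 CPM in control and 101, 95.0 and 94.3 CPM in deprived cells at 24 h, and fell by 0.37 ± 0.06 and 0.42 ± 0.06. ZNF503 fell by 0.25 ± 0.07 and 0.37 ± 0.06, and ZNF516 rose by 0.44 ± 0.05 at 48 h. The calls of ZNF451, ZNF644, ZNF518A and ZNF827 at 48 h, between -0.17 and 0.33, depended on the setting and on single libraries. The first 3 were lost with upper-quartile scaling (adjusted p = 0.164, 0.0766 and 0.0752, edgeR) and library totals (0.0968, 0.0545 and 0.0627). ZNF518A and ZNF827 lost theirs with DESeq2 (adjusted p = 0.0892 and 0.0874), and ZNF827 also with no filter (0.115, edgeR). The calls of ZNF451, ZNF644 and ZNF518A were lost without control replicate 2 (adjusted p = 0.187, 0.0834 and 0.177) or without deprived replicate 1 (adjusted p = 0.111, 0.161 and 0.238). That of ZNF827 was lost without control replicate 1 or deprived replicate 2 or 3 (adjusted p = 0.124, 0.0833 and 0.104).

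Of the KRAB genes known to bind transposable elements, 7 were measured at this level. At 24 h 2 were higher and 2 lower (background 28.8% and 26.9%), and at 48 h 4 were higher and 1 lower (background 33.5% and 34.9%). ZNF268 rose by 0.56 ± 0.11 and 0.69 ± 0.11 and ZNF202 by 0.84 ± 0.08 and 0.53 ± 0.08. ZNF33A and ZNF33B, near-identical copies between which the estimated counts may be split, were at 0.44 ± 0.10 and 0.21 ± 0.08 at 48 h. ZNF589 was the lower gene at 48 h, at -0.17 ± 0.07, and its call was lost with DESeq2 (adjusted p = 0.09), with no filter (0.0985), in a fit to the compared groups (0.0825), and without control replicate 1 or 2 or deprived replicate 2 or 3 (0.119, 0.0592, 0.0853 and 0.133). ZNF248, at -0.22 ± 0.09 at 24 h, lost its call with DESeq2 (adjusted p = 0.109), with no filter (0.142) and without any 1 of the compared libraries other than control replicate 2 (0.0755 to 0.165). The call of ZNF33B was lost with upper-quartile scaling (adjusted p = 0.129, edgeR), library totals (0.0864) and a floor of 5 CPM on the mean (0.075). It was also lost without control replicate 1 or 2 or deprived replicate 1 (adjusted p = 0.0538, 0.105 and 0.236).

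Most listed partners of KRAB repression and heterochromatin fell at 48 h. The list includes general heterochromatin and DNA methylation genes, such as UHRF1 and DNMT1, and not only proteins that KRAB domains recruit. Of 28 genes, 2 rose (7.14%) and 8 fell (28.6%) at 24 h, against a background of 28.8% and 26.9%. At 48 h 4 rose (14.3%) and 20 fell (71.4%), against 33.5% and 34.9%. The medians were -0.06 and -0.34, and the differences from the background were not tested. TRIM28, the scaffold, was at 542 ± 28.3 and 471 ± 29.1 CPM at 48 h, a log2 fold change of -0.20 ± 0.06, and SETDB1 at 48.8 ± 2.98 and 58.2 ± 2.02 CPM, a rise of 0.25 ± 0.06. HDAC1, a histone deacetylase, went from 280 ± 0.712 to 170 ± 6.39 CPM at 24 h and from 248 ± 9.23 to 133 ± 4.53 CPM at 48 h. EHMT2, a methyltransferase, changed by -0.83 ± 0.07 and -0.87 ± 0.07, and ATF7IP, the partner that stabilises SETDB1, by -0.37 ± 0.06 and -0.87 ± 0.06.

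**Figure D4:**
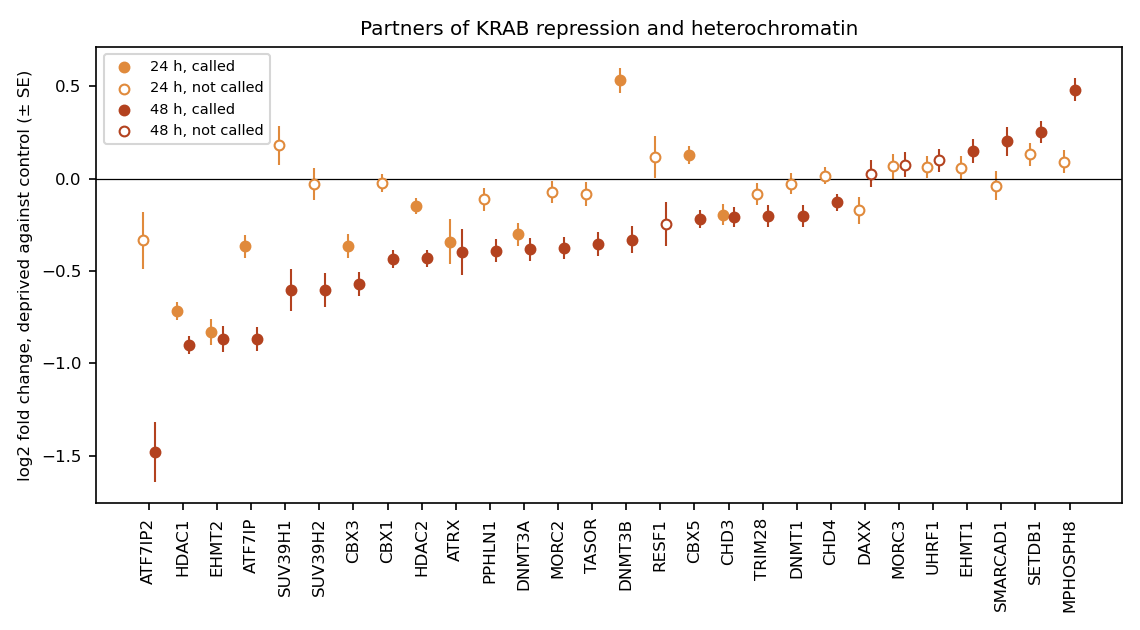
Log2 fold change of deprived against control cells (± SE) for 28 listed partners of KRAB repression and heterochromatin. The 24 h values are in orange and the 48 h values in red, and filled symbols mark genes past the threshold. At 48 h 20 of 28 lie below 0 and pass it (background 34.9%). SETDB1 and MPHOSPH8 are among the 4 that pass it above 0 (background 33.5%).

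Zinc transporters moved both ways. Among all genes tested 28.8% rose and 26.9% fell at 24 h, and 33.5% and 34.9% at 48 h. Of 7 tested exporters of the SLC30 family, 5 rose and 2 fell at 24 h and 5 rose and 1 fell at 48 h. SLC30A1, which sends zinc out of the cell, rose by 0.26 ± 0.06 and 0.31 ± 0.06, and SLC30A6 by 0.36 ± 0.06 and 0.73 ± 0.06. SLC30A3, lower at both times, changed by -0.84 ± 0.12 and -2.14 ± 0.13. Of 11 tested importers of the SLC39 family, 2 rose and 4 fell at 24 h and 5 rose and 4 fell at 48 h. SLC39A10 changed by -1.21 ± 0.07 and -2.36 ± 0.07, and SLC39A14 by 0.92 ± 0.05 and 1.33 ± 0.05.

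Chromosome 19 carries 73 of the 225 genes, in clusters of related copies. Of these, 24 rose (32.9%) and 13 fell (17.8%) at 24 h, against a background of 28.8% and 26.9%. At 48 h 30 rose (41.1%) and 20 fell (27.4%), against 33.5% and 34.9%. Their median was 0.06 at both times, against medians of 0.14 and 0.27 for the 152 on other chromosomes. Neighbouring genes, joined where gaps were at most 500 kb, formed groups of which the largest pair moved in opposite directions. This grouping was chosen with the values in view and has no test. In the group of 18 genes at chr19:57191500-58481230, 10 rose and 0 fell at 24 h and 12 rose and 0 fell at 48 h, with medians of 0.26 and 0.34. In the group of 14 at chr19:52113091-53458261, 1 rose and 7 fell at 24 h and 1 rose and 8 fell at 48 h, with medians of -0.22 and -0.40.

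**Figure D5:**
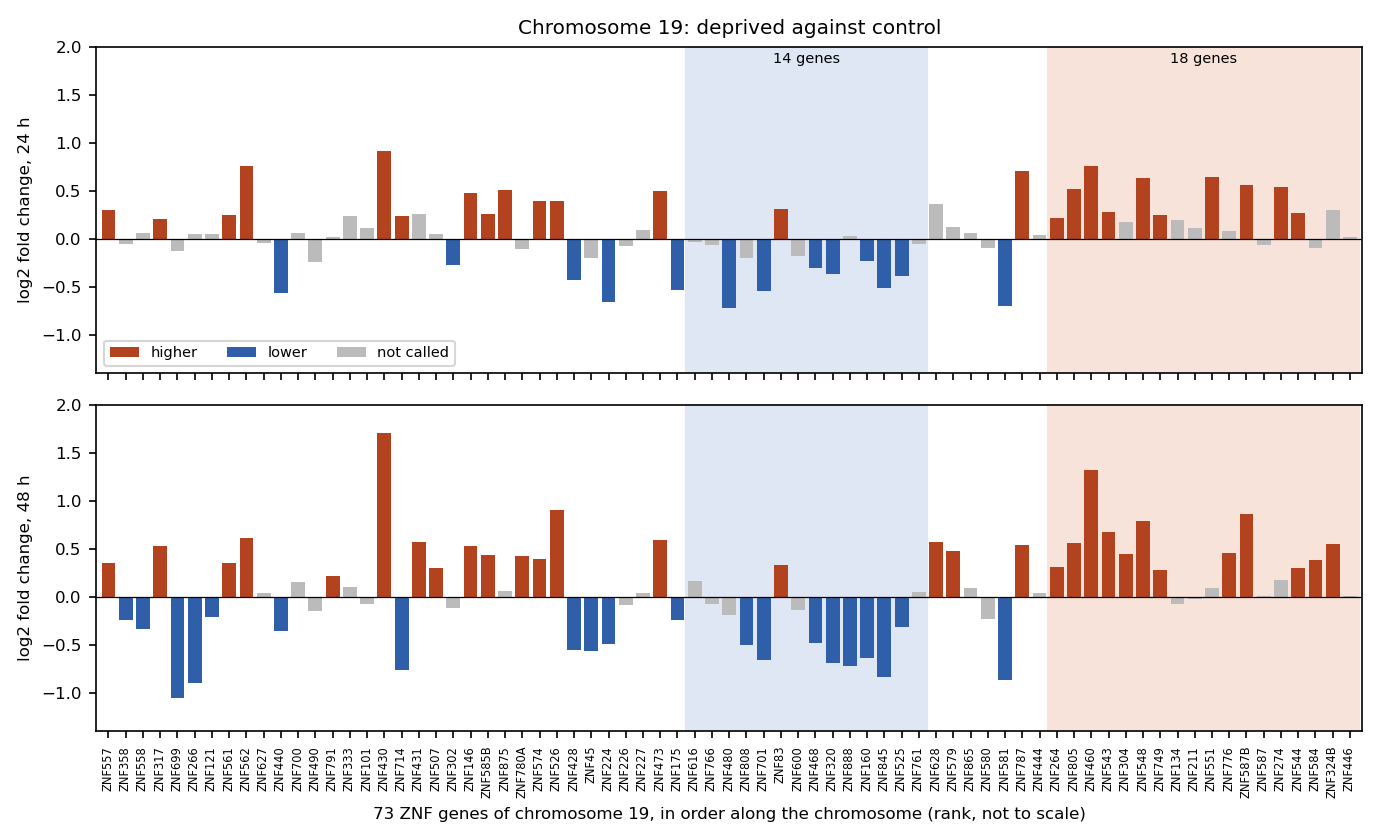
Log2 fold change of deprived against control cells at 24 h (top) and 48 h (bottom) for 73 genes of chromosome 19 in their order along it (by rank, not to scale), coloured by call. The shaded group of 14 has 8 genes lower at 48 h (background 34.9%), and the shaded group of 18 has 12 higher (background 33.5%) and none lower.

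The next genes were chosen after their values were seen. In the group of 18, ZNF587B was at 36.9, 34.9 and 35.4 CPM in control and 63.9, 66.3 and 65.3 CPM in deprived cells at 48 h, a rise of 0.87 ± 0.07, and ZNF548 rose by 0.64 ± 0.11 and 0.78 ± 0.11. ZNF587, a near-identical copy of ZNF587B, was at 0.01 ± 0.19 at 48 h, and its control samples spread from 8.81 to 15.2 CPM. In the group of 14, ZNF845 fell by 0.51 ± 0.12 and 0.84 ± 0.13 and ZNF320 by 0.36 ± 0.10 and 0.69 ± 0.10. ZNF160 fell at 48 h by 0.63 ± 0.08. The 1 gene higher there, ZNF83, was at 0.31 ± 0.11 and 0.33 ± 0.11. Its call at 24 h was lost with upper-quartile scaling (adjusted p = 0.075, edgeR) and library totals (0.108). It was also lost at 24 h without control replicate 3 or deprived replicate 1 or 2 (adjusted p = 0.0988, 0.0859 and 0.0636) and at 48 h without deprived replicate 1 (adjusted p = 0.0952).

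Other ZNF symbols in the same intervals, below 10 CPM but tested, were also counted at 48 h (background 33.5% higher and 34.9% lower). Among 18 in the first interval 4 rose and 2 fell, and among 5 in the second 0 rose and 2 fell. Genes with neither a ZNF number nor a C2H2 entry gave 6 and 5 of 21, and 0 and 4 of 8, and the 8 include the pseudogenes ZNF137P, ZNF321P and ZNF702P. Estimated counts split reads among similar copies, so single members of these clusters are uncertain, and whether strand was kept is not stated in any label used here, so overlapping genes on opposite strands cannot be told apart.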

How the data were processed

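RNA-seq libraries of 12 HCT116 samples, 3 in each of 4 groups, were analysed; groups and replicate numbers came from the sample titles. The authors deposited gene lengths and, for each gene, an estimated count that was not normalized. The submitters' processing notes name fastp, HISAT, RSEM and GRCh38 without versions; the annotation release and strandedness are not given in the sources used here. Estimated counts were rounded to whole numbers, and 316 rows without a gene name, with 0.748% to 1.65% of counts, were left out.

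Genes passing filterByExpr (minimum count 10, minimum total 15), 16994 in all, entered 1 fit of 4 group means in edgeR 4.0.16 (R 4.3.3) with TMM scaling, and p-values were adjusted by Benjamini-Hochberg over all genes with a threshold of 0.05. The standard error is the size of the log2 fold change over the root of F. CPM use TMM-scaled library sizes, except in the rule that chose the genes, and TPM use the deposited lengths. The biological coefficient of variation was 6.4%. Replicates differed by more than sampling noise (chi-square per degree of freedom 3.00 to 8.12), so none was treated as deposited again.

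The genes, the lists and the naming rule were chosen with earlier results of these data known. The rule names the 8 largest rises and falls at each time among genes past the threshold whose groups do not overlap, the 4 largest interactions each way, the 3 largest changes each way between times, the 5 most abundant genes, those next to the 10 CPM rule, the role lists, and the 3 with most and fewest fingers; of partners and transporters it takes the 3 smallest adjusted p at each time with TRIM28, SETDB1 and SLC30A1. Not every gene it names is printed.

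Proteins were translated from GENCODE release 29 with Biopython 1.88, since no protein table was used here. Fingers were first counted with 2 residues between the cysteines. That pattern found 1 finger in ZNF410, ZNF143 and ZNF76, and after these counts were seen it was replaced by one with 2 to 4 residues, which changed the count of 56 genes; the naming rule was run with both. Coordinates are those of GENCODE 29, matched by identifier for all 225 genes.

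On simulated counts with 200 changed genes, 69.8%, 85.7% and 92.9% of genes changed 1.5-, 2- and 4-fold were recovered in the comparison at 24 h among 16650 genes, with 8.47% of calls false; at 48 h these were 59.5%, 81.5% and 95.4% among 16637 genes, with 6.13% false. Alternatives were RLE, upper-quartile and library-total scaling, DESeq2 1.42.0, no filter, a floor of 5 CPM on the mean, replicate number as a block, a fit to the 2 groups compared, and leaving out each sample.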

Additional observations from a re-analysis of the deposited data

Results flagged for a closer look

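The effect of deprivation differed between 24 h and 48 h, by the interaction term of the edgeR fit at an adjusted p under 0.05 over all genes, in 39 of the genes that the naming rule or the text takes. Values are the log2 fold change at 48 h minus that at 24 h.

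The difference was positive in ZNF469 (1.06), ZNF697 (1.06), ZNF483 (1.05), ZNF629 (0.86), ZNF430 (0.79), ZNF81 (0.77), ZNF622 (0.74), ZNF281 (0.59), ZNF460 (0.56), ZNF655 (0.55), ZNF343 (0.53), ZNF480 (0.53), ZNF185 (0.49), ZNF830 (0.43), ZNF24 (0.40), ZNF33A (0.39), ZNF783 (0.33), ZNF638 (0.33), ZNF516 (0.33), ZNF644 (0.31), ZNF587B (0.31) and ZNF143 (0.30). It was negative in ZNF704 (-1.58), ZNF714 (-1.0), ZNF266 (-0.96), ZNF699 (-0.93), ZNF165 (-0.85), ZNF395 (-0.74), ZNF551 (-0.56), ZNF215 (-0.55), ZNF217 (-0.53), ZNF510 (-0.47), ZNF608 (-0.45), ZNF76 (-0.42), ZNF277 (-0.41), ZNF160 (-0.40), ZNF202 (-0.32), ZNF652 (-0.29) and ZNF106 (-0.21). The sizes are relative to the scaling, and under scaling by library totals more of the 225 genes were positive (59) and fewer negative (17). The median over all genes was then also higher, at 0.04 in place of -0.01.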

How the results depend on the processing

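Counts of genes higher and lower kept within 1.5 times of those reported under RLE and upper-quartile scaling, DESeq2, no filter, a mean of at least 5 CPM and the fit to compared groups alone, which gives no interaction. The exceptions were the negative interactions under library totals, 17 in place of 28, and, without single libraries, the genes lower with time in control cells. At 24 h the counts were 71 and 54 under the upper quartile and 70 and 54 under library totals. Leaving out 1 library at a time gave 79 to 91 higher and 40 to 48 lower at 24 h, 110 to 118 and 47 to 57 at 48 h, 41 to 52 and 19 to 29 for the interaction, 12 to 19 and 21 to 44 for control time, and 44 to 50 and 36 to 55 for deprived time.

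Deviations of samples with the same replicate number had correlations from -0.064 to 0.211, with 5 of 18 over 0.1. Of 36 best matches, 17 were with their own number. The highest correlation was that of replicate 1 between control and deprived cells at 48 h. With 3 samples per group this check cannot tell whether the numbers pair the samples. With the replicate number as a block, 90 were higher and 47 lower at 24 h, 118 and 58 at 48 h, 55 and 31 for the interaction, 18 and 44 for control time, and 52 and 50 for deprived time.

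For single genes named, 3178 values under alternatives kept direction and call, 89 lost the call, 21 gained it and 32 turned sign, all of these in uncalled comparisons near 0. Under upper-quartile scaling and library totals the 24 h values were -0.0132 and -0.0168 for ZNF266, -0.0226 and -0.0265 for ZNF121, -0.0182 and -0.0222 for ZNF451, -0.0291 and -0.0329 for ZNF827, -0.0177 and -0.0211 for ZNF33A and -0.00221 and -0.00619 for ZNF33B, and the 48 h values -0.0481 and -0.0135 for ZNF587; ZNF330 was at -0.0146 under the first. ZNF248 at 48 h was at 0.00567 under RLE, 0.00957 with DESeq2, 0.00242 with no filter and 0.00812 with compared groups only, and ZNF587 at -0.0245 with a mean of at least 5 CPM. Leaving out 1 library at a time, the values ran from -0.0462 to 0.0272 for ZNF248 at 48 h, -0.241 to 0.203 for ZNF587 at 24 h, -0.173 to 0.199 for ZNF587 at 48 h, -0.0508 to 0.0257 for ZNF638 at 24 h, -0.000466 to 0.0846 for ZNF451 at 24 h, -0.0249 to 0.174 for ZNF551 at 48 h and -0.00336 to 0.0814 for ZNF330 at 48 h. The cause was not tested.

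The tighter finger pattern, tried first, gave no match in 9 genes in place of 5. ZNF37A had the largest standard error at 48 h, 0.27 on the log2 scale.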
